A study of Drosophila melanogaster with 9 samples.

Results

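The genes that make, package and recapture neurotransmitters were followed through the day in fly heads (Drosophila melanogaster, strain 5073). The set was fixed by symbol as ple, Ddc, Vmat, DAT, SerT, Trh, Tdc2, VGlut, Gad1 and ChAT. Of these 10 genes, 9 were matched to at least 1 probe set, with 13 probe sets in all, among 11982 genes and 18769 probe sets. Trh was not analysed here, because its symbol was not matched to a gene identifier and its probe sets were not looked up. Heads were sampled at 6 zeitgeber times (ZT, hours from lights-on) on 9 Affymetrix arrays of total RNA. ZT3 had 3 arrays and ZT15 had 2, while ZT7, ZT11, ZT19 and ZT23 had a single array. The labels give no genotype beyond the strain name, and no sex, age, number of flies or light schedule. Nothing in them says whether the replicate arrays came from separate flies, so the p-values measure the spread between these arrays only. All groups are of the same strain, and no control strain was used here.

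Most of the transmitters covered here are made by a dedicated enzyme and loaded into synaptic vesicles by a vesicular transporter. Dopamine, serotonin and tyramine are made from aromatic amino acids, share the vesicular monoamine transporter, and act on sleep, arousal and movement in flies. Dopamine and serotonin are taken back up by their own plasma membrane transporters. Acetylcholine is the main excitatory transmitter of the fly brain, GABA its main inhibitory one, and glutamate the excitatory transmitter of the neuromuscular junction. In insects ple and Ddc also serve the epidermis, where dopamine is used to harden and colour the cuticle.

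Levels are log2 values of the authors' GCRMA intensities, and differences are in log2 units. A probe set was tested if it reached 5 on at least 2 arrays, which 12105 did. Every one of the 9 genes passed through at least 1 probe set, and 11 of the 13 probe sets passed. No level is compared between genes, because probe sets differ in how strongly they bind.

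The levels of tissue marker lists differed between the arrays. The neuron list (16 of 18 genes named on the array, all 16 tested) had medians of 11.19 to 11.82 and the photoreceptor list (11 of 13) 13.18 to 13.93, so the markers of head tissue were present on all 9 arrays. Markers of the testis and accessory gland, which lie outside the head, were present too: the 21-gene list had a median of 9.75 to 11.72 on 7 arrays, against 3.44 on ZT3 replicate 1 and 3.56 on ZT15 replicate 2. The log2 of its summed level was 8.79 and 9.25 on these 2 arrays and 14.41 to 16.34 on the others. The gut list (14 of 19 genes) had medians of 5.75, 6.14 and 5.47 on the 3 ZT3 arrays and 4.05 on ZT15 replicate 2, and 9.28 to 10.68 on the other 5; the log2 of its summed level was 8.41 to 10.94 on those 2 arrays and 13.53 to 16.20 on the other 7. The added control bioB, which does not come from flies, was highest on the same 2 arrays, at 9.38 and 9.28, and lowest on the ZT19 array, at 7.43. It was 9.04 and 8.21 on ZT3 replicates 2 and 3, and at most 8.06 (ZT11) on the remaining arrays. All 3 ZT3 arrays thus had more bioB than any array of another time except ZT15 replicate 2. The part of this in the comparisons of times was not tested. ZT3 replicate 1 and ZT15 replicate 2 are called the 2-array set from here on, and they were set apart from earlier results on these arrays. In head RNA, fewer cells of a type cannot be told apart from less RNA per cell. As a check on the time labels, Clk peaked at ZT2.0 and cry at ZT5.3, and tim had its highest levels, 12.93 to 13.08, from ZT11 to ZT19.

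All 9 genes had lower mean levels at ZT15 than at ZT3, and lower means over ZT15, ZT19 and ZT23 than over ZT3, ZT7 and ZT11, but none passed a test. By their brightest probe sets, the widest gaps between the earlier and the later times were those of VGlut and Vmat. These vesicular transporters of glutamate and of monoamines were 1.53-fold and 1.51-fold higher at the earlier times. Of the other tested Vmat probe sets, 1636275_a_at was 1.45-fold higher and 1628739_at 1.08-fold. Of the 9 genes, 4 (ple, DAT, SerT and Tdc2) had their highest 2 levels on the 2-array set, as did 38.6% of all tested probe sets. Ddc and Vmat also serve dopamine and serotonin. Ddc and Vmat probe sets 1637393_at and 1636275_a_at were not highest there, but Vmat probe set 1628739_at was, at 10.54 and 10.35.

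ple encodes tyrosine hydroxylase, the rate-limiting enzyme of dopamine synthesis. Its level was 7.92, 7.56 and 7.13 on the 3 ZT3 arrays, 6.94 at ZT7, 6.53 at ZT11, 6.21 and 7.82 on the ZT15 arrays, 6.71 at ZT19 and 6.80 at ZT23. The 2 arrays of ZT15 were the lowest and the second highest of all 9, so the time groups overlapped. With a range of 1.71, ple was the most variable of the 9 genes and lay at the 80.2nd percentile of the ranges of all tested probe sets, whose median was 0.86. ZT15 differed from ZT3 by -0.52 (SE 0.56, limma's adjusted p = 1.00).

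Ddc encodes dopa decarboxylase, which completes both dopamine and serotonin synthesis. It was measured at 11.20, 11.75 and 11.54 at ZT3, 11.61 at ZT7, 11.38 at ZT11, 11.20 and 11.24 at ZT15, 11.25 at ZT19 and 11.10 at ZT23. Unlike ple, it was not high on the 2-array set, and its ZT3 replicate 1 level fell among those of ZT15 to ZT23. The range was 0.65, at the 31.9th percentile. The mean over the later times minus that over the earlier ones was -0.30 (SE 0.12, limma's adjusted p = 0.955). The earlier mean was 11.50 ± 0.21 (SD, n = 5) and the later mean 11.20 ± 0.07 (SD, n = 4).

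Tdc2 encodes the neuronal tyrosine decarboxylase, which makes tyramine, the precursor of octopamine. Its levels were 6.70, 6.47 and 6.46 at ZT3, 6.38 at ZT7, 6.14 at ZT11, 6.01 and 6.75 at ZT15, 5.87 at ZT19 and 6.45 at ZT23. As for ple, the 2 highest came from the 2-array set and the ZT15 arrays bracketed most of the others. ZT15 minus ZT3 was -0.17 (SE 0.28, limma's adjusted p = 1.00).

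Vmat encodes the transporter that loads dopamine, serotonin, octopamine and histamine into vesicles. Its brightest probe set, 1637393_at, read 10.49, 10.48 and 10.63 at ZT3, 10.77 at ZT7, 10.54 at ZT11, 10.18 and 10.50 at ZT15, 9.32 at ZT19 and 9.95 at ZT23. The 5 earlier arrays lay between 10.48 and 10.77 and the ZT19 array stood 0.63 below the next time, ZT23. In this probe set 4 of the 5 gaps between neighbouring time means were larger than the residual SD between replicate arrays, 0.15. The order was ZT7, ZT11, ZT3, ZT15, ZT23, ZT19. As ZT7, ZT11, ZT19 and ZT23 rest on a single array each, a gap above this SD does not separate 2 times. A 24 h cosine had an amplitude of 0.61 (SE 0.14) with its peak at ZT7.9 (SE 0.66 h), or 2.34-fold from trough to peak. It did not pass (limma's adjusted p = 0.83, unadjusted p = 0.0077).

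The other Vmat probe sets did not all repeat this course. Probe set 1636275_a_at gave the same order of times, with 9.21 at ZT19, an amplitude of 0.52 (SE 0.14) and a peak at ZT7.7. Only 1 gap, between ZT23 and ZT19, exceeded its residual SD of 0.28. Probe set 1628739_at read 9.69 at ZT19, above its ZT7, ZT11 and ZT23 levels of 9.48, 9.61 and 9.52. Its amplitude was 0.08 (SE 0.18), and its highest levels, 10.54 and 10.35, were on the 2-array set. For this probe set later minus earlier was -0.11 (SE 0.25), and 0 gaps between neighbouring time means exceeded its residual SD of 0.46. The fourth, 1632856_s_at, stayed between 3.10 and 3.84 and was not tested. Which Vmat transcripts each probe set binds is not given in the sources used here.

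**Figure D1:**
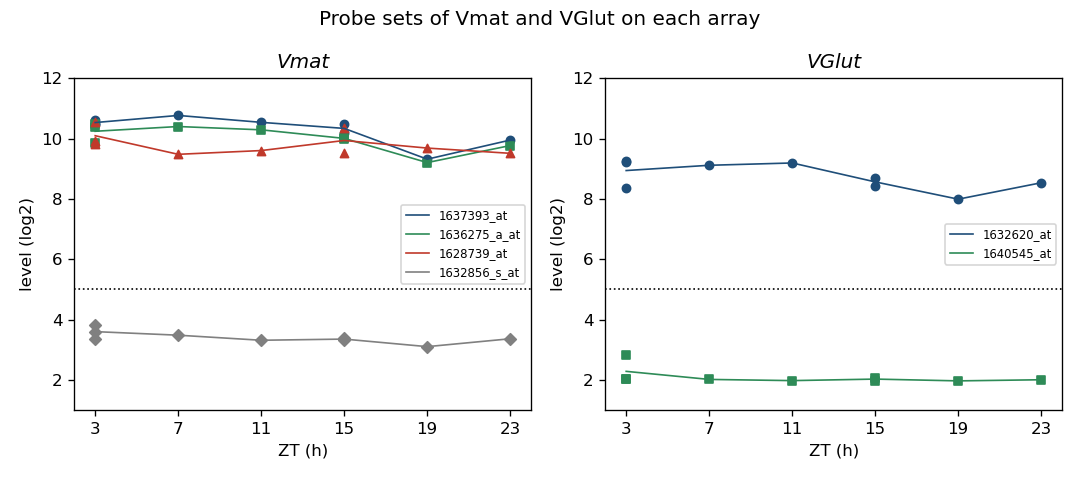
Log2 levels (vertical axis) of the 4 probe sets of Vmat and the 2 of VGlut against zeitgeber time in hours; points are arrays, lines join the means per time, and the dotted line marks the level of 5 needed for testing. Both upper Vmat probe sets dip at ZT19, to 9.32 and 9.21, while the third reads 9.69 there; the lowest probe set of each gene stays below 5 on all 9 arrays.

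VGlut encodes the vesicular glutamate transporter. Levels were 8.35, 9.23 and 9.25 at ZT3, 9.12 at ZT7, 9.20 at ZT11, 8.70 and 8.43 at ZT15, 7.99 at ZT19 and 8.54 at ZT23. Outside the 2-array set every earlier array lay above every later one; ZT3 replicate 1, at 8.35, lay below all the later arrays but ZT19. The cosine had an amplitude of 0.55 (SE 0.18) with its peak at ZT7.6 (SE 0.96 h, limma's adjusted p = 1.00, unadjusted p = 0.040). In the order of times ZT11, ZT7, ZT3, ZT15, ZT23, ZT19, only the gap of 0.54 between ZT23 and ZT19 exceeded the residual SD of 0.44. A second VGlut probe set stayed between 1.97 and 2.82 and was not tested.

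The plasma membrane transporters DAT and SerT, which take dopamine and serotonin back into the neuron, both had their highest levels on the 2-array set, as ple did. DAT was at 8.78, 8.27 and 8.38 at ZT3, 8.05 at ZT7, 7.40 at ZT11, 7.69 and 8.63 at ZT15, 7.24 at ZT19 and 7.65 at ZT23. SerT was at 9.21, 8.55 and 8.62 at ZT3, 8.30 at ZT7, 8.07 at ZT11, 7.89 and 9.23 at ZT15, 7.96 at ZT19 and 8.02 at ZT23. In both genes the ZT15 arrays differed from each other by more than the ZT3 and ZT15 means did. ZT15 minus ZT3 was -0.31 (SE 0.36) for DAT and -0.23 (SE 0.48) for SerT, each with limma's adjusted p = 1.00. Neither gene had a gap between neighbouring time means above its residual SD, 0.44 for DAT and 0.62 for SerT.

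Gad1, which encodes the enzyme that makes GABA, and ChAT, which encodes the one that makes acetylcholine, were the steadiest along with Ddc. Gad1 read 13.43, 13.56 and 13.53 at ZT3, 13.46 at ZT7, 13.41 at ZT11, 13.21 and 13.47 at ZT15, 13.21 at ZT19 and 13.13 at ZT23. Its range of 0.43 was at the 11.9th percentile of all tested probe sets. The time means were ordered as the clock, highest at ZT3 and lowest at ZT23, with 1 neighbouring gap over the residual SD of 0.12, between ZT15 and ZT19. ChAT read 10.97, 11.16 and 10.89 at ZT3, 10.89 at ZT7, 10.67 at ZT11, 10.68 and 11.16 at ZT15, 10.49 at ZT19 and 10.59 at ZT23, a range of 0.67. The ZT15 arrays of ChAT, at 10.68 and 11.16, lay on either side of ZT3 replicates 1 and 3.

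**Figure D2:**
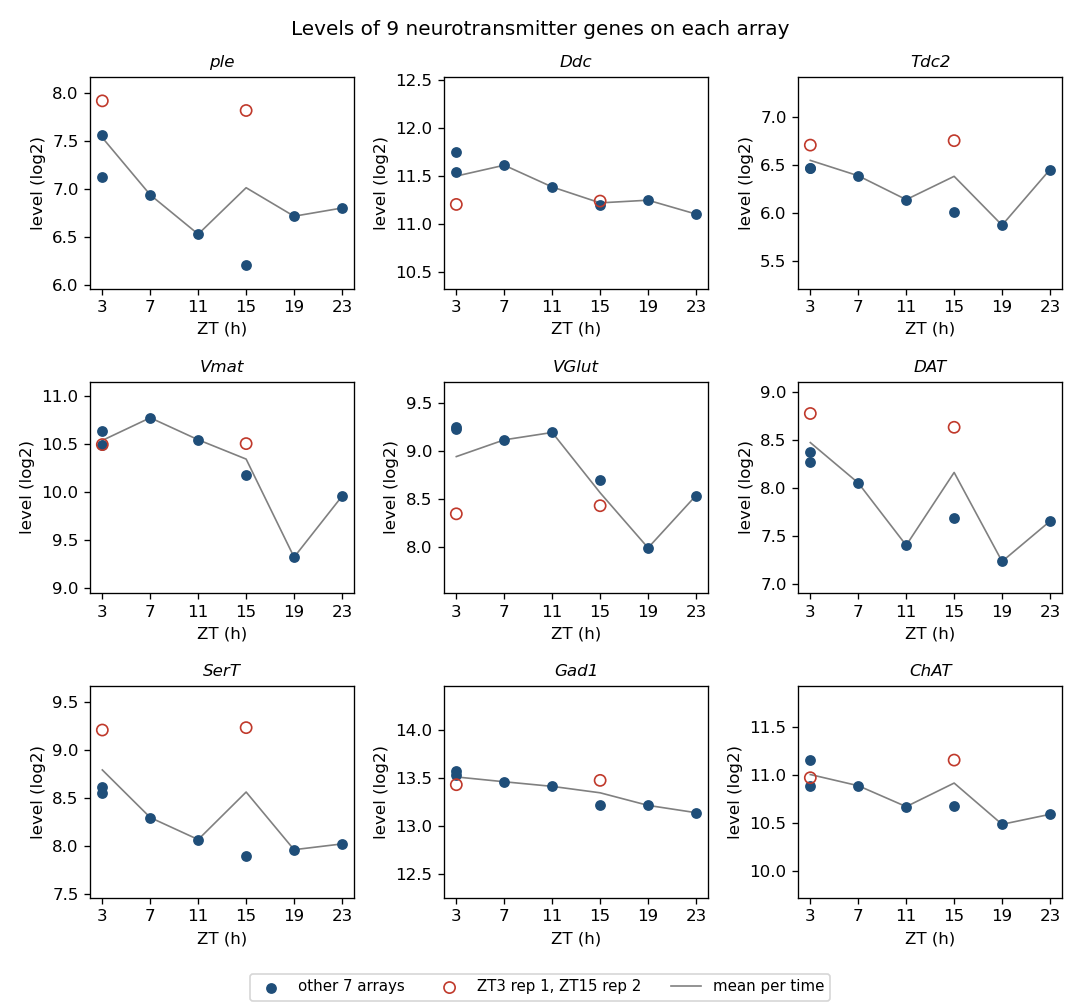
Log2 level (vertical axis, the same span of 2.2 in each panel) against zeitgeber time in hours for the brightest probe set of each of the 9 genes; filled points are 7 arrays, open points ZT3 replicate 1 and ZT15 replicate 2, and the line joins the means per time. The open points lie on top for ple, Tdc2, DAT and SerT (6.70 to 9.23), and Vmat and VGlut are lowest at ZT19 (9.32 and 7.99).

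ZT15 against ZT3 asked which transcripts differ between the 2 replicated times. None of the 9 genes passed an adjusted p of 0.05 in limma, and none of the 12105 probe sets did (0%); at an unadjusted p under 0.05 the counts were 0 of 9 and 284 of 12105 (2.35%). Differences ran from -0.52 for ple to -0.09 for ChAT, with a median of -0.23 against -0.04 over all tested probe sets. The direction was shared by 9 of 9 genes and by 57.9% of all probe sets. In none of the 9 were both ZT15 arrays below all 3 ZT3 arrays, which held for 9.62% of all probe sets.

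In 5 of the 9 genes this direction rested on ZT15 replicate 1. Within the 2-array set, ZT15 minus ZT3 lay between -0.14 (DAT) and 0.18 (ChAT) and was below 0 in 2 genes, DAT and ple (-0.10); both ple and DAT were lower within each set of arrays, as were 34.4% of all probe sets. Among the other arrays, ZT15 replicate 1 was below the mean of ZT3 replicates 2 and 3 in all 9, from -1.13 for ple and -0.69 for SerT to -0.33 for Gad1, where the median over all probe sets was -0.15. Without ZT15 replicate 1, the difference turned for 5 genes: 0.28 for ple, 0.21 for Tdc2, 0.16 for DAT, 0.44 for SerT and 0.15 for ChAT. It stayed below 0 in 4 of 9, as for 44.4% of all probe sets. Without the 2-array set, ple (-1.13, limma's adjusted p = 0.033), DAT (-0.63, adjusted p = 0.045) and SerT (-0.69, adjusted p = 0.031) passed, as 3 of 9 genes against 18.1% of all probe sets called and 5.04% called lower. That fit sets 1 ZT15 array against 2 ZT3 arrays, and no other time has more than 1 array in it. Its p-values therefore rest on the spread between ZT3 replicates 2 and 3, with none from ZT15. The 2-array set was also chosen after the data had been seen. These calls thus cannot decide whether ZT15 differs from ZT3. The ZT15 array and the 2 ZT3 arrays also differ in gut list median, 10.52 against 6.14 and 5.47. The part of this difference in the result was not tested.

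The comparison of the later with the earlier times used every array, with 4 from ZT15 to ZT23 and 5 from ZT3 to ZT11. In limma 0 of 9 genes passed, as did 0 of 12105 probe sets (0%). At an unadjusted p under 0.05 there were 4 of 9 genes, VGlut, Vmat, Ddc and Gad1, and 603 of 12105 probe sets (4.98%). Later minus earlier was -0.61 (SE 0.22) for VGlut, -0.59 (SE 0.22) for Vmat, -0.37 (SE 0.34) for DAT, -0.33 (SE 0.37) for ple, -0.27 (SE 0.33) for SerT, -0.22 (SE 0.10) for Gad1, -0.19 (SE 0.16) for ChAT and -0.16 (SE 0.20) for Tdc2. The median over the 9 was -0.30, against -0.03 over all tested probe sets, 56.9% of which were also lower. No gene had its 4 later arrays below all 5 earlier ones (1.42% of all probe sets did). Without the ZT19 array the value was -0.37 for Vmat and -0.47 for VGlut. In the 7 arrays outside the 2-array set, Ddc, Vmat, VGlut, SerT and Gad1 had the 3 later arrays below the 4 earlier ones, 5 of 9 against 11.9% of all probe sets. In these 7 arrays the gut list median was 10.52, 10.21 and 9.91 on the later arrays and 5.47 to 10.68 on the earlier ones, and its part in this was not tested.

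Marker lists of neurons and of most other tissues had lower later values too. The neuron list was lower at the later times in 14 of 16 genes, with a median of -0.19. The photoreceptor list was lower in 11 of 11, with -0.23, against 56.9% of all probe sets. So were glia in 7 of 7 (-0.13), muscle in 6 of 6 (-0.28) and hemocytes in 4 of 4 (-0.16). Cuticle and epidermis were lower in 8 of 10 (-0.44) and fat body in 3 of 5 (-0.08). The gut list was lower in 3 of 13 (median 1.06), and testis and accessory gland in 0 of 21 (0.41). No member of these lists passed. With each array centred on its neuron list median, later minus earlier was still below 0 in 9 of 9 genes, against 28.1% of all probe sets, and its median over the 9 was -0.16 in place of -0.30. It was -0.47 for VGlut and -0.45 for Vmat, but -0.05 for ChAT and -0.02 for Tdc2. This centring moved the median of all probe sets to 0.11, and no gene was called with it. The neuron list median was lower on the 2-array set, at 11.19 and 11.27 against 11.30 to 11.82. Centring therefore raised those arrays against the rest. The range over the 9 arrays widened for ple (1.71 to 2.14), SerT (1.34 to 1.77), DAT (1.54 to 2.00), Tdc2, Gad1 and ChAT. It narrowed for Ddc, VGlut and Vmat probe set 1637393_at. Whether the lower later values go beyond neuron content was not tested.

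**Figure D3:**
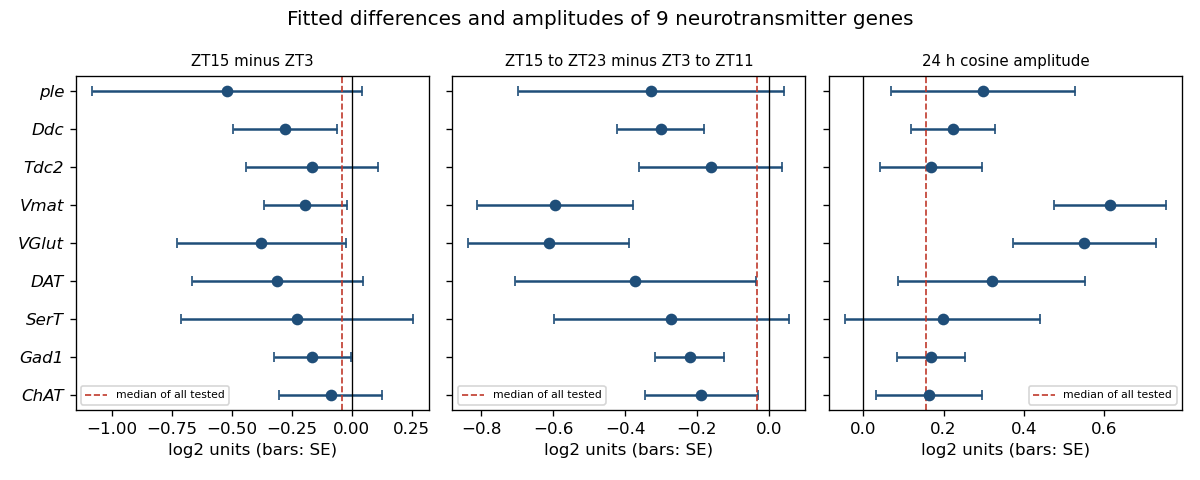
Fitted differences (left and middle) and 24 h cosine amplitudes (right) in log2 units on the horizontal axis, for the 9 genes on the vertical axis; points are limma estimates over 9 arrays, bars 1 SE, and dashed lines the medians of all 12105 probe sets. All differences lie below 0, and the largest amplitudes are those of Vmat (0.61) and VGlut (0.55).

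The rhythm over 24 h was not called in any of the 9 genes by limma, where 4 of 12105 probe sets were (0.033%). At an unadjusted p under 0.05, Vmat and VGlut were 2 of 9 genes, against 524 of 12105 probe sets (4.33%). Amplitudes of the other 7 genes ran from 0.16 (SE 0.13) for ChAT to 0.32 (SE 0.23) for DAT, with standard errors of 0.085 to 0.24. With all probe sets of a gene averaged, those below the filter level included, the amplitude was 0.32 for Vmat and 0.31 for VGlut. The median over the 9 was 0.22, against 0.16 over all tested probe sets. The core clock gene Clk, by comparison, had an amplitude of 1.28 (SE 0.06). Fitted peaks fell before ZT12 in 9 of 9 genes (54.4% of all probe sets), from ZT2.8 for ple to ZT7.9 for Vmat. The ZT19 and ZT23 times rest on single arrays. The lowest level was on the ZT19 array in 5 of 9 genes, Tdc2, Vmat, VGlut, DAT and ChAT, against 26.9% of all probe sets. It was on the ZT23 array for Ddc and Gad1. For ple and SerT it was on ZT15 replicate 1, at 6.21 and 7.89, where ZT15 replicate 2 read 7.82 and 9.23. The ZT19 array also had the lowest bioB level and the lowest photoreceptor list median, 13.18, and their part in its low values was not tested.

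Because the 2-array set splits both replicated times, each fit was repeated with it as a block. No gene passed: the smallest limma's adjusted p was 0.164 for a rhythm (Vmat), 0.377 for later against earlier times (VGlut) and 0.428 for ZT15 against ZT3 (DAT). Over all probe sets the block gave 30 calls for the rhythm (0.248%) and 0 for both differences. Values moved little for Vmat (amplitude 0.62, SE 0.12) and VGlut (0.55, SE 0.14). For ple the standard error of ZT15 minus ZT3 fell from 0.56 to 0.31, at -0.69. limma's array weights, by contrast, called 3 of 9 rhythms (Vmat, VGlut and DAT, against 9.72% of all probe sets) and 7 of 9 genes as lower at the later times (all but ple and Tdc2, against 12.1% of all probe sets called lower). Its weights ran from 0.0064 (ZT11) to 13.7 (ZT3 replicate 3) in the rhythm fit.

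The difference between the 2-array set and the other arrays was of another kind and divided the genes. The 2 arrays were on average higher by 1.03 for ple, 1.02 for SerT, 0.89 for DAT and 0.47 for Tdc2, and lower by 0.47 for VGlut (-0.47) and 0.18 for Ddc (-0.18). Gad1 differed by 0.09, Vmat by 0.23 (1637393_at) and ChAT by 0.30. Vmat probe sets 1628739_at and 1636275_a_at differed by 0.79 and -0.16. The median of all probe sets was 0.20, and 38.6% of them had both arrays above the other 7, as 4 of 9 genes did; 17.3% had both below the other 7, as none of the 9 genes did. These values are a description, since the arrays were set apart after the data had been seen. Moving with them were the lists for cuticle and epidermis (12 genes on the array, 10 tested), with medians of 7.68 and 7.70 on the 2 arrays and 6.06 to 7.11 on the rest, for hemocytes (5 genes on the array, 4 tested), with 8.44 and 8.62 against 7.39 to 8.13, and for glia (7 genes, all tested), with 11.03 and 11.08 against 10.62 to 10.97. The log2 of the summed level of the cuticle and epidermis list was 12.80 and 14.19 on the 2 arrays, and at most 13.85 on the other 7. It was 11.22 and 11.35 against 10.56 to 11.15 for hemocytes, and 13.93 and 13.95 against 13.42 to 13.79 for glia. For the fat body list (6 genes, 5 tested) it was 17.45 and 17.61 against 17.14 to 17.39, while the medians overlapped. The median of the neuron list moved the other way, with 11.19 and 11.27 against 11.30 to 11.82. The log2 of its summed level overlapped, with 16.18 and 16.26 against 16.11 to 16.45. In 7 of its 16 genes both arrays were below the other 7, and in 0 above. The part of these lists in the differences was not tested.

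**Figure D4:**
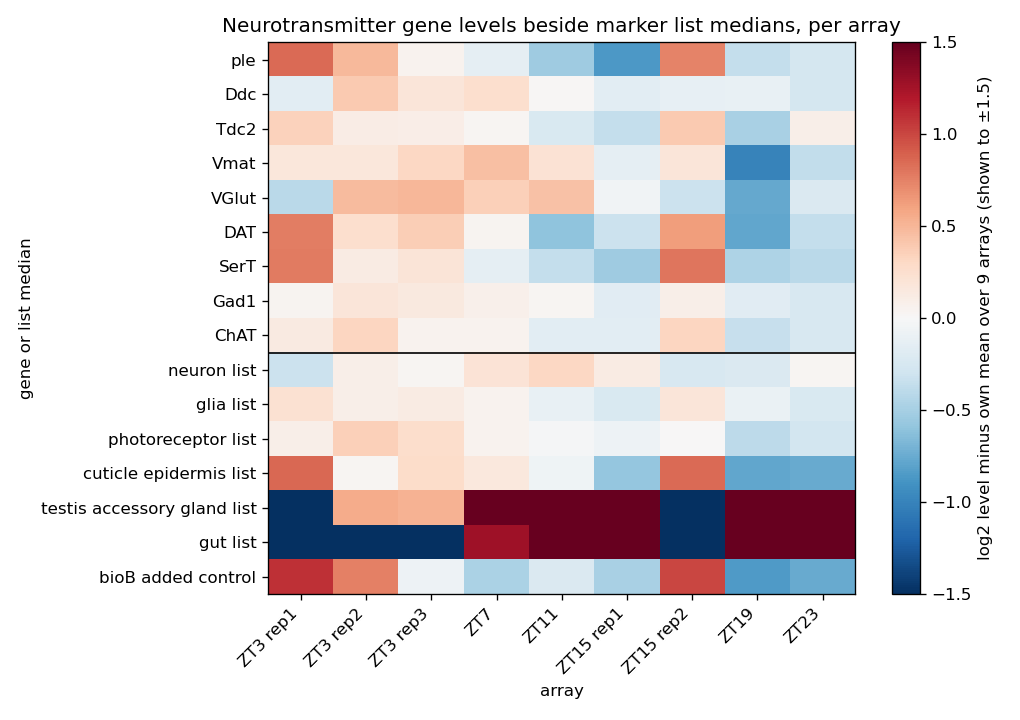
Colour gives the log2 level of each of 9 genes (upper rows), the median of 6 marker lists and the mean bioB level (lower rows) minus its own mean over the 9 arrays, which are the columns; colour is capped at 1.5 in either direction. ple, DAT, SerT and Tdc2 are high on ZT3 replicate 1 and ZT15 replicate 2, where the testis and accessory gland list is at 3.44 and 3.56 and bioB at 9.38 and 9.28.

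The genes whose course was most like that of ple, the member of widest range, were CG15160, AANATL2, ihog, CG12728 and gogo. Their profiles, each with its own mean over the 9 arrays taken off, had a root mean square difference from that of ple of 0.105 for CG15160, 0.108 for AANATL2, 0.131 for ihog, 0.138 for CG12728 and 0.142 for gogo, where the median over 9658 genes was 0.48. AANATL2 belongs to the arylalkylamine N-acetyltransferases, a family that inactivates monoamines. It read 7.26, 6.57 and 6.28 at ZT3, 6.08 at ZT7, 5.71 at ZT11, 5.61 and 7.0 at ZT15, 5.87 at ZT19 and 6.03 at ZT23. Both arrays of the 2-array set were its highest, as for 38.6% of all probe sets, and ZT15 replicate 1 its lowest. AANATL2 was picked for a profile close to that of ple, so this likeness is no separate result.

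Around these genes, the rest of the transmitter pathways showed no call in either difference or in the rhythm. Lists of 6 tested genes for cofactor synthesis, 5 for other synthesis, 3 for other vesicular transport, 9 for other membrane transport, 9 for breakdown and recycling and 35 for receptors gave 0 called in each direction. All tyrosine and tryptophan hydroxylases need tetrahydrobiopterin, and the cofactor list had a median later minus earlier of -0.03. Its member Pu, the GTP cyclohydrolase of the first step, had ZT15 minus ZT3 of 0.07 (SE 0.27). Dhpr, a dihydropteridine reductase that regenerates the cofactor, had -0.16 (SE 0.34), Pcd 0.08 (SE 0.26) and Catsup, a negative regulator of tyrosine hydroxylase, 0.06 (SE 0.16).

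Among the other enzymes, Hdc, which makes histamine, the transmitter of photoreceptors, read 11.73, 11.74 and 11.74 at ZT3, 11.31 at ZT7, 11.05 at ZT11, 11.01 and 11.62 at ZT15, 11.26 at ZT19 and 11.54 at ZT23, and its cosine had an amplitude of 0.27 (SE 0.10) at ZT1.1. Tbh, which converts tyramine to octopamine, had a later minus earlier value of -0.23 (SE 0.12), and Gs1, a glutamine synthetase, 0.06 (SE 0.10). amd, which encodes a relative of dopa decarboxylase that acts in cuticle formation, read 7.49 and 8.06 on the 2-array set and 5.43 to 5.78 on the other 7 arrays. That is the opposite side from Ddc, which was not high on those arrays.

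The other vesicular transporters were VAChT for acetylcholine, VGAT for GABA and prt, a relative of Vmat. All had lower means at ZT15, as did 57.9% of all probe sets, with differences of -0.42 (SE 0.18), -0.31 (SE 0.26) and -0.36 (SE 0.16). VAChT read 11.37 at ZT19, its highest of the 9 levels, where ChAT read 10.49, its lowest. VGAT read 9.12 at ZT19 and 9.06 at ZT23. prt was lowest at ZT19, at 6.15, as was Vmat. Neither VGAT nor prt was called, with limma's adjusted p = 1.00 for ZT15 against ZT3.

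Of the other membrane transporters, CarT, a carcinine transporter of photoreceptors used in histamine recycling, had the smallest p for ZT15 against ZT3, with a difference of -0.63 (SE 0.18, limma's adjusted p = 1.00). It read 9.52, 9.50 and 9.41 at ZT3 and 8.66 and 9.03 at ZT15. Both ZT15 arrays lay below all 3 ZT3 arrays, which held for 9.62% of all probe sets. Eaat2, a glutamate and aspartate transporter family member of glia, had -0.22 (SE 0.16), gb, a cystine and glutamate exchanger gene, -0.23 (SE 0.24), and Gat, the GABA transporter of glia, -0.03 (SE 0.17).

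Breakdown and recycling genes were lower at the later times in 9 of 9, against 56.9% of all probe sets, with a median of -0.25. The largest amplitude among them was that of t (tan), the hydrolase that releases histamine and dopamine from their beta-alanine conjugates: 0.66 (SE 0.14) with its peak at ZT23.3 (limma's adjusted p = 0.789, unadjusted p = 0.0040). t read 13.33, 13.23 and 13.15 at ZT3, 12.23 at ZT7, 11.83 at ZT11, 12.29 and 12.71 at ZT15, 12.87 at ZT19 and 13.06 at ZT23, lowest at ZT11. e (ebony), which makes those conjugates, had ZT15 minus ZT3 of -0.55 (SE 0.20) and was lowest at ZT23, at 9.96. Ace, the acetylcholinesterase gene, had a later minus earlier value of -0.38 (SE 0.12), and speck, which encodes an N-acetyltransferase of dopamine and serotonin, -0.41 (SE 0.13), each with limma's adjusted p = 0.955.

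The receptor list had 33 of 35 genes lower at the later times, against 56.9% of all probe sets, with a median of -0.20. nAChRalpha1, an acetylcholine receptor subunit gene, had all 4 later arrays, at 5.36, 5.34, 4.25 and 5.52, below the 5 earlier ones, at 5.70 to 6.20, close to the filter level of 5. This held for 1 of the 35 receptor genes and for 1.42% of all probe sets. For nAChRalpha1, later minus earlier was -0.87 (SE 0.26, limma's adjusted p = 0.955). DopEcR, a receptor for dopamine and ecdysteroids, had an amplitude of 0.61 (SE 0.19) at ZT7.0. It read 9.71, 10.43 and 10.77 at ZT3 and 9.12 at ZT19, and its ZT15 replicate 2 level of 9.52 lay below that of replicate 1, 10.06, the reverse of ple and DAT. Nmdar1, a glutamate receptor subunit gene, had ZT15 minus ZT3 of -0.38 (SE 0.16), and TyrR, a tyramine receptor gene, -0.30 (SE 0.16).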

How the data were processed

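GCRMA was used by the authors to make the deposited values, per the submitters' processing notes, with no version given. The file holds 1 linear intensity per probe set and array, from 5.31 to 8120023. The natural log of the deposited intensity was taken as the authors' log2 value, because the levels of added controls then had a slope on log2 concentration of 1.05 ± 0.0597 (SD, 9 arrays), against 1.51 with log2. If log2 were the true scale, folds would be raised to the power 1.44. Of 18769 probe sets other than 183 controls, 13647 named 1 gene, 402 several and 4720 none, through the platform annotation updated by Entrez identifier (13544 matched). A gene stands by its probe set of highest mean. Tests used limma 3.58.1 in R 4.3.3, checked on simulated data: group means for ZT15 against ZT3, a 24 h cosine and sine, and later (ZT15 to ZT23) against earlier (ZT3 to ZT11) times, with Benjamini-Hochberg adjustment over 12105 probe sets, two-sided. The number of arrays limits the precision. The rule named the 9 genes, up to 3 genes of smallest p per pathway list for ZT15 against ZT3 and for the rhythm, up to 4 clock genes, and the 5 profiles nearest to the member of widest range. Members, lists and the 2-array set were chosen with earlier results of these data known. No batch is given by the labels.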

Additional observations from a re-analysis of the deposited data

How the results depend on the processing

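No member was called for ZT15 against ZT3, later against earlier times or the rhythm on leaving out any 1 array, with either filter, either scaling, neuron list centring, log2 of the deposited values, averaged probe sets or the block. Without the 2-array set 2190 probe sets and 3 members were called for ZT15 against ZT3. Array weights, whose estimation did not converge fully, called 1177 probe sets and 3 members for the rhythm, and 2116 and 7 for later against earlier times. The count of 4 rhythmic probe sets was 2 with neuron list centring, 30 with the block, 68 without the 2-array set, 0 with 1 mean per time or time as a factor, and 2 to 11 on leaving out 1 array. Of 528 member values under alternatives, 510 kept direction and call, 13 gained a call and 5 turned, all for ZT15 against ZT3 without ZT15 replicate 1. On leaving out 1 array this difference ran from -1.32 to 0.28 for ple, -0.54 to 0.21 for Tdc2, -0.78 to 0.16 for DAT, -0.90 to 0.44 for SerT and -0.33 to 0.15 for ChAT, lowest without ZT15 replicate 2. Leaving out 1 array, the members' median later minus earlier ran from -0.59 (without ZT15 replicate 2) to -0.20 (without ZT19), and ZT15 minus ZT3 from -0.36 to 0.15. With the replicate number as a block, 0 probe sets were called for ZT15 against ZT3. Same-numbered ZT3 and ZT15 arrays deviated oppositely from their time means (r = -0.865 and -0.812 across probe sets). The 2 ZT15 arrays deviate from their own mean by exact opposites, and the 2-array set holds ZT3 replicate 1 and ZT15 replicate 2. These values therefore cannot show whether the numbers pair the arrays. The fit of ZT15 against ZT3 without the 2-array set has 1 ZT15 array. Its calls rest on the spread between ZT3 replicates 2 and 3. The cause of the changes between settings was not tested.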
